A study of Mus musculus with 8 samples.

Results

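The Polycomb complex subunits examined here are 10 of the 23845 genes in the tables, chosen by name, namely Ezh1, Ezh2, Eed, Suz12, Jarid2, Mtf2, Rnf2, Ring1, Pcgf6 and Kdm2b. They were followed in METTL5 knockout (KO) and wild-type (WT) mouse embryonic stem cells (mESC), pluripotent cells of the early embryo kept in culture, at passages 5 to 10. METTL5 is the enzyme that places N6-methyladenosine on 18S ribosomal RNA, the RNA of the small ribosomal subunit. Ribosome-protected fragments (Ribo-seq footprints), taken from the monosome fraction of a gradient, and total RNA (RNA-seq) were each sequenced from 2 KO and 2 WT libraries. The labels give no strain, sex or number of KO clones, and they call the replicates biological without saying what separated them. The p-values below therefore cover only the variation among these cultures or preparations. Same-numbered KO and WT footprint libraries share a tag in the form of a date, whose meaning no label gives. The main fits did not pair them.

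Polycomb repressive complexes keep developmental genes silent. PRC2 methylates a lysine of histone H3 through EZH2 or its paralogue EZH1, and needs EED and SUZ12 for activity and assembly. JARID2 and MTF2 belong to alternative forms of PRC2 and help to bring it to chromatin. PRC1 places ubiquitin on histone H2A through RNF2 (RING1B) or RING1 (RING1A). PCGF6 and KDM2B each mark a variant form of PRC1, and KDM2B carries a zinc finger that binds unmethylated CpG islands. In mESC both complexes occupy the promoters of lineage regulators, which are kept at low expression.

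The footprint tables held 9322662 and 11487964 counts in KO and 10466185 and 8401463 counts in WT, and all 10 genes passed the filter on low counts. Levels are given as CPM, the counts scaled to a common library total, and 3 counts corresponded to between 0.261 and 0.357 CPM, which covers counting error only. Footprints on Mettl5, the targeted gene, stood at 4.08 and 4.79 CPM in KO, against 41.2 and 45.9 CPM in WT, and its RNA-seq counts were 39 and 55 in KO, against 84 and 132 in WT. All 12 markers of embryonic stem cells were tested, and their summed level was 7632 and 7391 CPM in KO and 5978 and 7629 CPM in WT. Dppa5a held the greatest part, at 2979 and 3313 CPM in KO and 1743 and 2994 CPM in WT. Tfcp2l1, a naive-state factor, rose, at 133 and 102 CPM in KO against 69.3 and 70.1 CPM in WT (log2 fold change 0.76, edgeR adjusted p = 0.0491). That call was not made by limma-voom or by limma on log2(TPM + 1). Nor was it made with library totals only, at a mean count of at least 50, with chromosome medians removed, or without KO replicate 1. Zfp42, on chromosome 8, stood lower without passing, at 754 and 691 CPM in KO against 1084 and 1096 CPM in WT (-0.58, adjusted p = 0.0904). DESeq2 called 1 of the 12 markers lower, beside 122 of all 12315 genes. The fit with no filter also called 1 lower (beside 404 of 17328). So did the fit with the replicate number as a block (beside 1394 of 12315). Of 14 fibroblast markers, 12 were tested, 3 rose (Col3a1, Col5a1 and Tagln) and none was called lower, beside 1.83% and 0.617% of all genes tested. The sum of these 14 markers was 3360 and 3444 CPM in KO, against 2220 and 1929 CPM in WT. Most of that sum was Fn1, fibronectin, at 2605 and 2456 CPM in KO and 1769 and 1674 CPM in WT, while Lum, a fibroblast proteoglycan, was at 0 in all 4 libraries. Of the 12 tested, 11 had both KO libraries above both WT libraries and 1 had both below, beside 24.3% and 25.5% of all genes tested. That 1 marker had a log2 fold change of -0.51. The median log2 fold change of the 12 was 1.89. Col1a1, a fibrillar collagen, stood at 212 and 274 CPM in KO against 70.9 and 23.9 CPM in WT. With the replicate number as a block 11 were called higher and 1 lower, beside 1566 higher and 1394 lower of all 12315 genes. Of 12 extraembryonic endoderm markers, 9 were tested and 3 fell (Cubn, Dab2 and Col4a1), beside 0.617% of all genes tested. The sum of these 12 markers was 363 and 476 CPM in KO, against 786 and 956 CPM in WT. Their part in the results below was not tested, and in bulk libraries fewer cells of a type cannot be told apart from less RNA per cell.

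The start codon and its surroundings are shown for each gene, because the small subunit, whose RNA METTL5 methylates, is the part of the ribosome that selects the start codon. The windows hold 12 bases before and 6 bases after the start codon, which is in capitals, and come from GENCODE M21 transcripts (GRCm38) that match the RefSeq accessions of the tables, the one with the longest coding sequence per gene.
Ezh1: ccgctgcattccATGaggaaa
Ezh2: cgaagaataatcATGggccag
Eed: aggcggaggaacATGtccgag
Suz12: gcaggaaccgcgATGgcgcct
Jarid2: ttggatctcagaATGagcaag
Mtf2: ttaagtgaccgaATGagagac
Rnf2: gcaggagccgaaATGtctcag
Ring1: tgccccgtcaccATGacgacg
Pcgf6: ctgatccccgccATGgacgag
Kdm2b: tctcctaaaaaaATGgaggca
In 8 of the 10 windows an A or G stood 3 bases before the start codon, where a purine favours initiation in vertebrates, and the exceptions were Ezh1 and Mtf2. In 4 windows, those of Ezh2, Suz12, Pcgf6 and Kdm2b, the start codon was also followed by a G. These 4 had footprint log2 fold changes, KO over WT, of -0.33, -0.73, -0.20 and 0.31, so both signs occurred among them.

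Footprints on Suz12, the scaffold subunit of PRC2, fell in the KO. Suz12 lies on the plus strand of chromosome 11, from 79993106 to 80034123 (GRCm38). Its level was 88.2 and 89.7 CPM in KO, against 146 and 153 CPM in WT. Both KO libraries lay below both WT libraries, and the libraries of a genotype differed by far less than the genotypes did. The log2 fold change was -0.73 (SE 0.15, adjusted p = 0.0384 by the edgeR quasi-likelihood test), a level 0.601 times that of WT with a 95% interval of 0.478 to 0.756. The ratio of KO to WT was 0.604 between the libraries numbered 1 and 0.587 between those numbered 2. Suz12 was the 1 of 10 subunits called, beside 2.44% of all 12315 genes tested, and the share called lower was 0.617%. The adjusted p was 0.222 without KO replicate 1 and 0.100 without KO replicate 2.

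The methyltransferase pair gave smaller values in the same direction. Ezh2, the main catalytic subunit in dividing cells, lies on the minus strand of chromosome 6 (47530139 to 47595341). It stood at 154 and 152 CPM in KO, against 187 and 201 CPM in WT. Ezh1, its paralogue, lies on the minus strand of chromosome 11 (101191115 to 101226463). It stood at 22.2 and 27.6 CPM in KO, against 31.2 and 39.0 CPM in WT. For both genes the KO libraries lay below the WT libraries, and neither passed the test. With the replicate number as a block edgeR called both lower (adjusted p = 0.0190 for Ezh2 and 0.00575 for Ezh1). That fit called 1394 of all 12315 genes lower and 1566 higher. The log2 fold change was -0.33 for Ezh2 (95% interval -0.66 to -0.0031, adjusted p = 0.255) and -0.47 for Ezh1 (interval -0.96 to 0.0075, adjusted p = 0.264).

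Eed, the subunit that binds the methylated histone tail, had nearly equal levels. It lies on the minus strand of chromosome 7 (89954654 to 89980983) and stood at 156 and 134 CPM in KO, against 146 and 136 CPM in WT. The groups overlapped, and the log2 fold change was 0.05 (interval -0.28 to 0.38, adjusted p = 0.894).

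**Figure D1:**
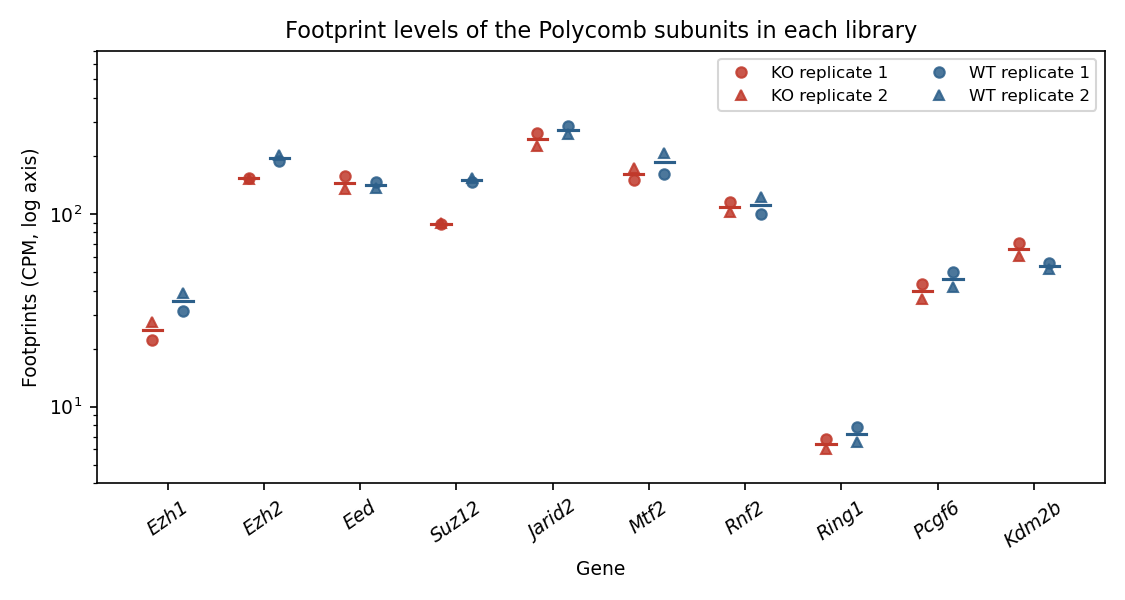
Footprint level of each Polycomb subunit (CPM from expected counts, log axis) in the 2 KO and 2 WT libraries. Points are libraries and short lines are means of 2 libraries. Suz12 sits at 88.2 and 89.7 CPM in KO and at 146 and 153 CPM in WT, while Eed overlaps.

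The accessory subunits of PRC2 did not pass the test. Jarid2, a catalytically inactive relative of the histone demethylases, lies on the plus strand of chromosome 13 (44729474 to 44921643). It stood at 263 and 225 CPM in KO, against 286 and 259 CPM in WT, with overlapping groups (log2 fold change -0.15, interval -0.49 to 0.20). Mtf2, also called PCL2, lies on the plus strand of chromosome 5 (108065674 to 108109004). It stood at 149 and 173 CPM in KO, against 161 and 207 CPM in WT, again overlapping (-0.18, interval -0.58 to 0.23). For both genes the library numbered 1 and the library numbered 2 differed within a genotype by about as much as the genotypes did.

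Of the PRC1 subunits, none passed the test either. Rnf2, the main ubiquitin ligase of PRC1 in mESC, lies on the minus strand of chromosome 1 (151458004 to 151500955). It stood at 115 and 102 CPM in KO, against 100 and 122 CPM in WT (log2 fold change -0.02, interval -0.38 to 0.34). Ring1, its paralogue on chromosome 17 (34020792 to 34024680, minus strand), was the least covered subunit, at 6.76 and 6.01 CPM in KO and 7.83 and 6.55 CPM in WT. Its interval was correspondingly wide (-0.17, interval -0.73 to 0.40). Pcgf6, on the minus strand of chromosome 19 (47033617 to 47050906), stood at 43.3 and 36.1 CPM in KO, against 50.2 and 41.5 CPM in WT (-0.20, interval -0.61 to 0.22). The KO and WT libraries of these 3 genes overlapped.

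Kdm2b was the 1 subunit whose KO libraries lay above both WT libraries. It lies on the minus strand of chromosome 5 (122870665 to 122989823). Its footprints stood at 70.9 and 60.5 CPM in KO, against 55.2 and 51.5 CPM in WT. The log2 fold change of 0.31 did not pass the test (interval -0.06 to 0.67, adjusted p = 0.341). Exons of Kdm2b overlap by 627 bases with those of Rnf34, a ubiquitin ligase gene on the other strand, and no source used here gives the strand setting of the counting. Rnf34 itself stood at 27.5 and 24.7 CPM in KO, against 30.2 and 28.9 CPM in WT.

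Among the 10 subunits, 3 had both KO libraries below both WT libraries and 1 had both above, beside 25.5% and 24.3% of all genes tested (49.8% for either). At an unadjusted p below 0.05, Suz12 and Ezh2 were lower and none was higher, beside 8.72% and 10.7% of all genes. Negative log2 fold changes were found for 8 of 10, against 6065 of 12315 genes, and the median was -0.17, against 0.01 over all genes. The remaining overlaps between exons of subunits and of genes on the other strand were 395 bases for Mtf2 with Tmed5, 158 for Rnf2 with Trmt1l, 261 for Eed with E230029C05Rik, 178 for Suz12 with Gm26563, 174 for Ezh2 with Gm26625 and 199 for Kdm2b with A930024E05Rik. Exons of Kdm2b also share 124 bases with Gm44574 on the same strand. These bases could carry reads of either gene.

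Footprints of chromosomes 6, 8 and 11 were lower in the KO as a whole, so the subunits were also set against their chromosomes. The median log2 fold change was -0.25 over 1008 tested genes of chromosome 11, which carries Suz12 and Ezh1, and -0.38 over 541 genes of chromosome 6, which carries Ezh2. The chromosomes of the other 7 subunits had medians between -0.01 and 0.10. Against its chromosome, Ezh2 was 0.05 above the median and Ezh1 was -0.22 from it, while Suz12 was -0.48 from it. With chromosome medians removed in the fit, Suz12 had a log2 fold change of -0.48 and lost its call (adjusted p = 0.147), Ezh1 had -0.23 and Ezh2 had 0.037. What lowers the footprints of these chromosomes was not tested, nor was its part in the values of the subunits.

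**Figure D2:**
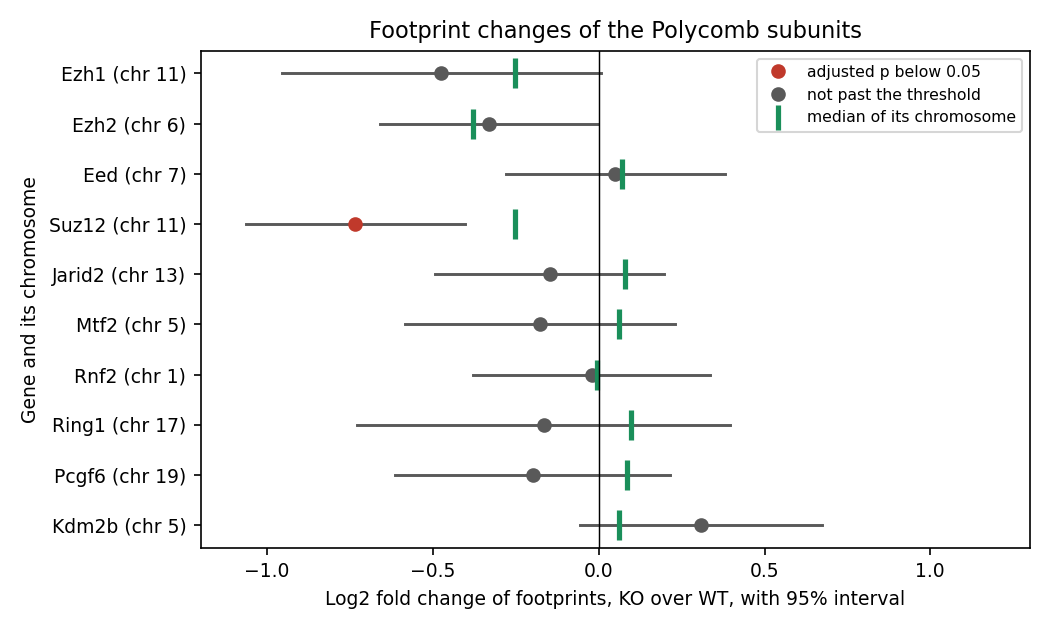
Log2 fold change of footprints, KO over WT, for each subunit with its 95% interval, and the median of all tested genes on its chromosome as a green mark. Suz12, at -0.73 beside a chromosome median of -0.25, is the 1 subunit called, and Ezh2, at -0.33, lies next to the median of -0.38 of chromosome 6.

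Within chromosome 11, Suz12 lay towards the lower end. Of the 1007 other tested genes there, 77 (7.65%) had a lower log2 fold change than Suz12, and 232 (23.0%) had a lower one than Ezh1. Within 5 megabases either side of Suz12, a window chosen after its value was seen, 113 genes were tested with a median of -0.26, 9 of them were lower than Suz12 and 1 was called lower. Around Ezh1, 174 genes had a median of -0.25, and 40 were lower than Ezh1. Around Ezh2 on chromosome 6, 37 genes had a median of -0.30, and 17 were lower than Ezh2, so that Ezh2 sat in the middle of its neighbours.

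**Figure D3:**
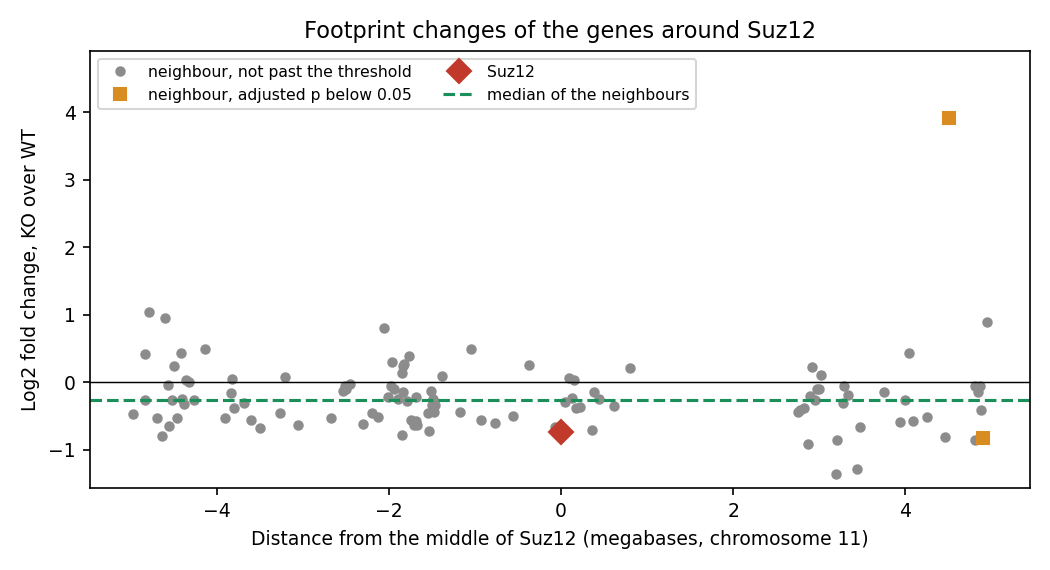
Log2 fold change of footprints, KO over WT, of the 113 genes tested within 5 megabases of Suz12, by distance from its middle. The dashed line is their median of -0.26. Suz12 (diamond) stands at -0.73, and 9 neighbours are lower.

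Levels between genes were compared per length. By the deposited TPM, which divides by the length of the transcript, Eed and Ezh2 were the most covered subunits. Eed averaged 111 ± 9.34 TPM in KO and 109 ± 3.23 TPM in WT, and Ezh2 averaged 91.1 ± 1.47 TPM in KO and 116 ± 7.76 TPM in WT (SD, n = 2 each). Jarid2, Mtf2 and Rnf2 followed at 64.4, 55.4 and 56.5 TPM in KO, and at 72.4, 64.6 and 58.3 TPM in WT. Mtf2 and Rnf2 did not differ beyond their spread in either genotype, nor did Jarid2 and Mtf2. Suz12 averaged 32.1 ± 1.05 TPM in KO, about the level of Pcgf6 (29.9 ± 3.12 TPM), but 54.2 ± 2.69 TPM in WT, above Pcgf6 (34.8 ± 4.07 TPM). Kdm2b stood at 22.4 and 19.7 TPM in KO and at 17.9 and 16.9 TPM in WT. Ezh1 averaged 9.34 TPM in KO and 13.3 TPM in WT, and Ring1, the lowest, 4.96 TPM in KO and 5.63 TPM in WT.

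Footprints fall on the coding sequence, so the same levels were also set per coding kilobase. The coding sequences ranged from 1008 bases for Rnf2 to 3927 bases for Kdm2b. On this scale, over the mean of all 4 libraries, Rnf2 ranked first, at 114 and 101 CPM per coding kilobase in KO and 99.4 and 121 in WT, and Eed second, at 118 and 101 in KO and 110 and 103 in WT. Rnf2 and Eed did not differ beyond their spread. Suz12 stood at 39.7 and 40.3 CPM per coding kilobase in KO, against 65.7 and 68.7 in WT, and kept the sixth rank over the mean of all 4 libraries. Ring1 was last on both scales.

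**Figure D4:**
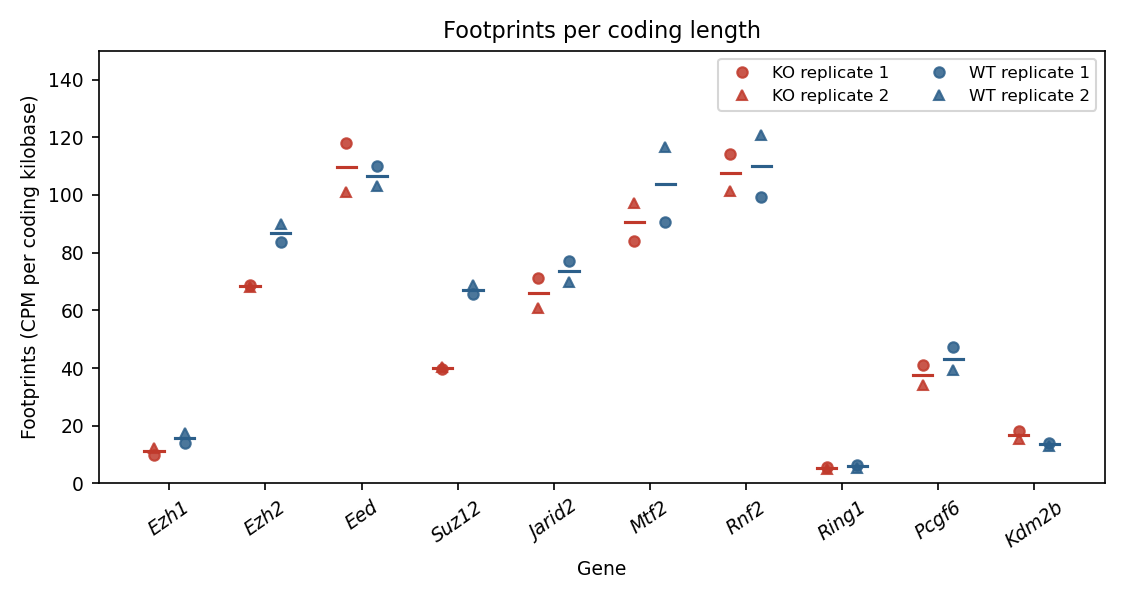
Footprints per coding length (CPM per kilobase of coding sequence) for each subunit in the 2 KO and 2 WT libraries. Points are libraries and short lines are means. Suz12 stands at 39.7 and 40.3 in KO and at 65.7 and 68.7 in WT, beside Eed between 101 and 118 in all 4 libraries.

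Subunits that share a complex were then set against each other in each library. The 3 core subunits of PRC2 are present in equal numbers in the complex. Per coding kilobase, the ratio of Suz12 to Eed was 0.336 and 0.399 in KO, against 0.597 and 0.666 in WT. The ratio of Ezh2 to Eed was 0.583 and 0.671 in KO, against 0.760 and 0.871 in WT. The ratio of Suz12 to Ezh2 was 0.577 and 0.594 in KO, against 0.785 and 0.765 in WT. In each of these ratios both KO libraries lay below both WT libraries, and the third ratio follows from the other 2. But 2 libraries against 2 cannot give a two-sided exact permutation p below 0.333, so no test was made. Eed lies on chromosome 7 (median 0.07), Suz12 on chromosome 11 (-0.25) and Ezh2 on chromosome 6 (-0.38). The part of these medians in the ratios was not tested.

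The ratios between paralogues, and between the subunits that mark the forms of PRC2, overlapped. Ezh1 stood at 0.144 and 0.181 of Ezh2 per coding kilobase in KO, against 0.166 and 0.193 in WT. Ring1 stood at 0.0486 of Rnf2 in both KO libraries, against 0.0647 and 0.0445 in WT. Jarid2, of one form of PRC2, stood at 0.846 and 0.626 of Mtf2, of the other form, in KO, against 0.850 and 0.599 in WT. The ratio of Jarid2 to Mtf2 thus followed the library number and not the genotype. Kdm2b stood at 0.441 and 0.452 of Pcgf6 in KO, against 0.297 and 0.335 in WT, the 1 of these 4 ratios with no overlap.

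The RNA-seq tables were too shallow to say which of these footprint values went with the amount of mRNA. They held 152195 and 173389 counts in KO and 211353 and 219567 counts in WT, and the 10 subunits together had 18 and 25 counts in KO and 23 and 29 counts in WT. None passed the filter on low counts, so with the filter neither RNA levels nor translational efficiency, the footprints relative to the RNA, were tested for them. Suz12 had 0 and 5 counts in KO, against 8 and 9 counts in WT. Its pooled ratio of KO to WT, scaled to the totals, was 0.389 (exact Poisson counting interval 0.112 to 1.10). Kdm2b had 5 and 11 counts in KO, against 2 and 2 counts in WT, a pooled ratio of 5.29 with an interval of 1.71 to 21.8. These intervals leave out the spread between libraries. With no filter, edgeR gave Kdm2b an adjusted p of 0.422 in RNA-seq and 0.352 in translational efficiency. For Suz12 the edgeR values were 0.762 and 0.733. Rnf34, on the other strand of Kdm2b, had 2 and 2 counts in KO and 1 and 4 counts in WT.

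Jarid2 had 9 and 5 RNA-seq counts in KO, against 4 and 6 counts in WT, a ratio of 1.85 (interval 0.765 to 4.66). Ezh2 had 0 and 1 counts in KO, against 3 and 2 counts in WT, and Mtf2 had 1 and 3 in KO, against 4 and 3 in WT. Eed was at 0 in both KO libraries, against 2 and 3 counts in WT, and Ezh1 at 0 in both KO libraries, against 0 and 4 counts in WT. Ring1 had 3 and 0 counts in KO and none in WT. Rnf2 and Pcgf6 were at 0 in all 4 libraries, which at this depth allows up to 13.7 to 19.7 CPM per library.

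Around the 10 subunits, no other Polycomb gene passed the test. Among 8 tested accessory subunits of PRC2, 10 of canonical PRC1, 18 of variant PRC1, 10 of the opposing deubiquitinase complex PR-DUB and its relatives, and 15 of the opposing demethylases and trithorax group, edgeR, DESeq2 and limma-voom called none. At an unadjusted p below 0.05 the number higher and lower was 0 and 1 for the PRC2 accessory list, 0 and 1 for canonical PRC1, 1 and 2 for variant PRC1, 0 and 1 for PR-DUB and 2 and 2 for the opposing group, in all 10 of 61 genes (16.4%), beside 19.4% of all genes. Both KO libraries lay below both WT libraries for 20 of the 61 and above them for 10, together 49.2%, beside 49.8% of all genes. With the replicate number as a block, 7 of the 61 were called higher and 11 lower, beside 1566 higher and 1394 lower of all 12315 genes. The list medians were -0.34 for PRC2 accessory subunits, -0.15 for canonical PRC1, -0.01 for variant PRC1, -0.08 for PR-DUB and 0.09 for the opposing group, beside 0.01 over all genes. The medians depended on single libraries, and leaving out WT replicate 1 gave -0.05 for PRC2 accessory subunits and 0.17 for canonical PRC1, while leaving out WT replicate 2 gave -0.64 and -0.37. With any 1 library left out, canonical PRC1 ranged from -0.37 to 0.17, variant PRC1 from -0.11 to 0.04, PR-DUB from -0.23 to -0.16 and the opposing group from 0.09 to 0.30. With WT replicate 1 left out, 1 gene of canonical PRC1, 2 of variant PRC1 and 1 of the opposing group were called, and with WT replicate 2 left out 1 PRC2 accessory gene was.

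Phf19, a relative of Mtf2 in the same form of PRC2, had the smallest p of these lists. It stood at 6.44 and 5.66 CPM in KO, against 13.7 and 10.8 CPM in WT (log2 fold change -1.01, SE 0.24, adjusted p = 0.0647), with no overlap. Next in that list by p were AU022751 at 2.36 and 1.31 CPM in KO and 2.96 and 2.62 CPM in WT, and Aebp2, a cofactor of the JARID2 form, at 36.9 and 28.6 CPM in KO and 45.4 and 34.0 CPM in WT. Phc1, a polyhomeotic subunit of canonical PRC1 encoded on chromosome 6, stood at 258 and 201 CPM in KO, against 340 and 268 CPM in WT. Scml2, on the X chromosome, stood at 5.26 and 6.35 CPM in KO, against 8.22 and 10.8 CPM in WT. Phc2 overlapped, at 12.8 and 8.32 CPM in KO and 6.69 and 8.57 CPM in WT.

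In variant PRC1 the 3 smallest p values were those of Rybp, Bcor and Skp1a. Rybp, which stimulates the ligase and lies on chromosome 6, stood at 49.6 and 50.4 CPM in KO, against 70.8 and 79.3 CPM in WT (log2 fold change -0.57, adjusted p = 0.106). Bcor, of the complex that also holds KDM2B, stood at 45.3 and 53.9 CPM in KO, against 34.5 and 24.2 CPM in WT (0.77, adjusted p = 0.113). Skp1a, of the same complex and on chromosome 11, stood at 451 and 641 CPM in KO, against 751 and 1079 CPM in WT (-0.72, adjusted p = 0.155). The KO and WT libraries of these 3 genes did not overlap.

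Among the opposing enzymes, Kdm6b, a demethylase that removes the mark of PRC2, stood at 24.3 and 19.3 CPM in KO, against 14.3 and 13.1 CPM in WT (0.68, adjusted p = 0.113). Ash2l, a core subunit of the trithorax-type methyltransferases encoded on chromosome 8, stood at 278 and 268 CPM in KO, against 409 and 368 CPM in WT (-0.49, adjusted p = 0.129). Ash1l averaged 3.20 CPM in KO and 5.48 CPM in WT. Kdm1b, a demethylase listed with PR-DUB, stood at 22.5 and 17.9 CPM in KO, against 28.8 and 27.4 CPM in WT. Bap1, the deubiquitinase of PR-DUB, averaged 19.6 ± 0.31 CPM in KO and 25.1 ± 0.057 CPM in WT (SD, n = 2 each). Ogt, an enzyme that binds it, stood at 129 and 106 CPM in KO, against 149 and 134 CPM in WT. None of these genes passed the test.

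Genes that Polycomb complexes are known to occupy in mESC mostly had few footprints in both genotypes. Of 76 such developmental regulators, 44 had under 10 footprint counts in every library. The filter was passed by 25 of the 76, beside 12315 of all 23845 genes. In each footprint library, between 11810 and 12368 of all genes had at least 10 counts. Of the 25 regulators tested, 3 rose and none fell (9 higher and 4 lower at an unadjusted p below 0.05). The share called higher among all genes tested was 1.83% (10.7% higher and 8.72% lower at the unadjusted p). With the replicate number as a block 9 were called higher and 3 lower, beside 1566 and 1394 of all 12315 genes. With no filter on low counts 7 were called higher and 2 lower, of 70 genes then tested, beside 706 and 404 of all 17328. A gene near 0 in WT could pass the filter only by being high in KO, so the counts and the median of the 25 describe those 25 alone. Their median log2 fold change was 0.38. Leaving out WT replicate 2 gave -0.04, WT replicate 1 gave 0.60 with 7 called, KO replicate 2 gave 0.13 and KO replicate 1 gave 0.23.

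The 3 that rose were T, the brachyury factor of mesoderm, Lhx1, a homeobox factor of the early embryo, and Sox9, a factor of many later lineages. All 3 had at most 3 counts in each WT library, so they passed the filter only through the KO libraries. Their adjusted p-values therefore describe these genes and are not a test of the list. Sox9 had 16 and 32 counts in KO, against 2 and 1 counts in WT, a pooled ratio of 14.5 (counting interval 4.68 to 72.8) (adjusted p = 0.0272). T had 20 and 51 counts in KO, against 3 and 2 counts in WT (adjusted p = 0.0271). Lhx1 had 14 and 40 counts in KO, against 1 and 2 counts in WT (adjusted p = 0.0369). Sox9 and Lhx1 lie on chromosome 11, whose median was negative. Without KO replicate 2 none of the 3 was called (adjusted p = 0.100 for T, 0.169 for Lhx1 and 0.115 for Sox9). By limma-voom Sox9 alone was called (adjusted p = 0.0404, against 0.0536 for T and 0.0597 for Lhx1), and by limma on log2(TPM + 1) none was. Endoderm regulators of the same list had negative values that did not pass, Gata6 at 1.82 and 0.783 CPM in KO against 3.73 and 3.93 CPM in WT, and Sox17 at 0.429 and 0.870 CPM in KO against 2.87 and 1.19 CPM in WT. The summed level of the endoderm markers, a list that includes Gata6 and Sox17, was also lower in KO, as given above. Its part was not tested.

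**Figure D5:**
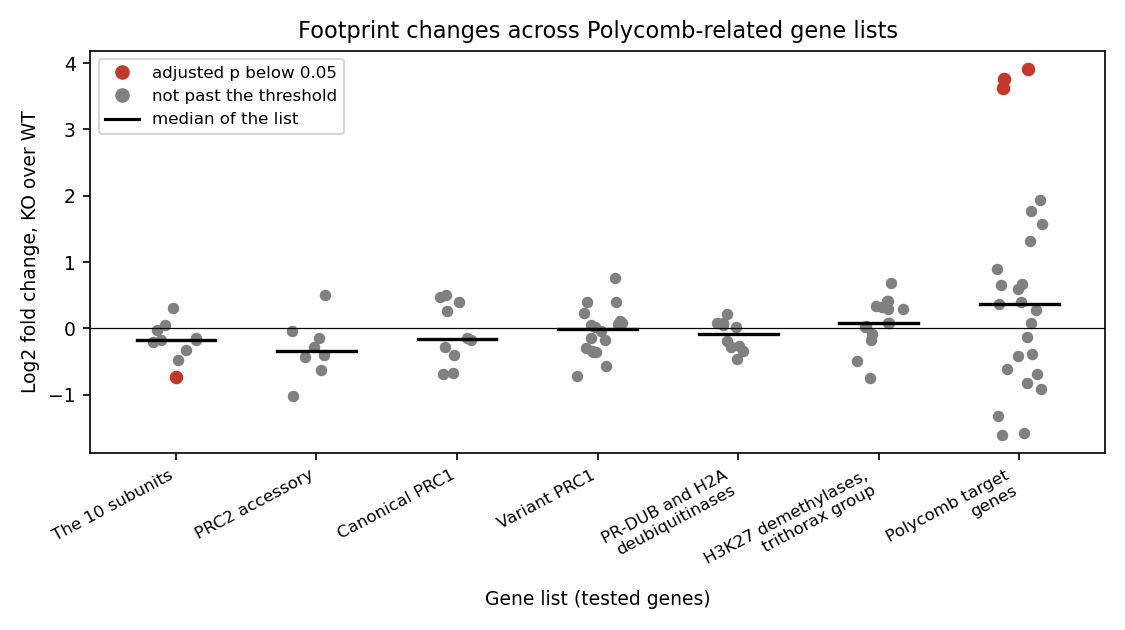
Log2 fold change of footprints, KO over WT, of the tested genes in each list, with list medians as black lines and called genes in red. The 10 subunits have a median of -0.17 with Suz12 called. T, Sox9 and Lhx1, at 3.62 to 3.91, are the called Polycomb target genes and passed the filter only through the KO libraries.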

How the data were processed

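Per the submitters' processing notes, reads were handled with RSEM and Bowtie2 2.3.4.3 on mm10; trimming, alignment options and strand handling: not given in the sources used here. Each deposited table lists 23845 symbols with expected counts, TPM, FPKM and lengths, per the file headers. The deposited FPKM values were not used. Expected counts were rounded and tested with edgeR 4.0.16 (robust quasi-likelihood, TMM, filterByExpr, Benjamini-Hochberg over all genes tested, called below 0.05). RNA-seq and Ribo-seq were fitted apart, and translational efficiency as the interaction of assay and genotype. Standard errors came from the F statistics, with 95% intervals on the fit's degrees of freedom. CPM used unrounded counts and library totals, of which Rn45s, the ribosomal RNA precursor, took 10.6% and 15.2% in KO and 7.58% and 10.9% in WT footprints. The deposited TPM gave levels between genes. GENCODE M21 (GRCm38, the assembly of mm10) gave positions and coding lengths, and 22680 symbols were placed on 1 chromosome. Replicates differed by more than sampling noise, with chi-square per degree of freedom of 2.96 to 24.1. The steps were tested on simulated counts.

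Named genes were the 10 subunits, Mettl5, the called genes of each Polycomb list filled up to 3 by smallest p, and the 3 most covered genes of each marker list, not all described; Gata6, Sox17, the called markers and Lum, at 0, were named after their values were seen. Subunits and lists were chosen with earlier results of these data known. Alternatives were DESeq2 1.42.0, limma-voom and limma on log2(TPM + 1) (limma 3.58.1), other scaling, a mean count of 50 or more, no filter, the replicate number as a block, chromosome medians removed, 1 fit over all 8 libraries and each library left out.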

Additional observations from a re-analysis of the deposited data

How the results depend on the processing

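The count of 301 genes called in footprints was 114 by limma on log2(TPM + 1), 1110 with no filter, 186 at a mean count of at least 50, 467 in 1 fit over all 8 libraries and 189 to 761 with a library left out. The count of 1 subunit called was 0 by limma on log2(TPM + 1) (Suz12 adjusted p = 0.0636), 0 in 1 fit over all 8 libraries (0.0676), 0 with chromosome medians removed (0.147) and 0 to 1 with a library left out. Suz12 was called in 10 of 15 alternatives, with log2 fold changes of -0.79 to -0.48. The log2 fold change of Ezh2 was 0.037 and that of Eed was -0.042 with chromosome medians removed. With a library left out, that of Eed ranged from -0.016 to 0.12 (-0.0027 without WT replicate 2), that of Mtf2 from -0.34 to 0.0068 and that of Rnf2 from -0.15 to 0.12. Ezh1, Jarid2, Ring1, Pcgf6 and Kdm2b kept their sign in all 15. Without Rn45s in the totals, 14 of 20 mean CPM values of the subunits moved by over 1 SD. The count of 133 genes called in RNA-seq was 75 by DESeq2 and 73 to 242 with a library left out, and that of 135 in translational efficiency was 57, 75 and 125 to 154 with an RNA-seq library left out (57 without KO replicate 1 and 75 without KO replicate 2), and 40, 18, 69 and 83 without footprint library KO replicate 1, KO replicate 2, WT replicate 1 and WT replicate 2. The causes were not tested.

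The replicate number was also fitted as a block. Same-numbered KO and WT footprint libraries also carry a common tag in their names, in the form of a date, whose meaning no label gives, and their deviations from the group mean had a correlation of 0.433 over 12315 genes. Whether the number pairs the libraries therefore could not be settled. With the replicate block 2960 of the 12315 genes were called, 1566 higher and 1394 lower. Of the subunits 3 were called, all 3 lower, namely Suz12 (adjusted p = 4.41e-09), Ezh1 (0.00575) and Ezh2 (0.0190), and Kdm2b had 0.0526. The block called 155 genes in RNA-seq and 160 in translational efficiency.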
